A study of Mus musculus with 12 samples.

Results

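Transcripts of 6 genes of the phagocyte NADPH oxidase, Cybb, Cyba, Ncf1, Ncf4, Rac2 and Nox4, were followed by RNA sequencing in 12 mice. The tissue was a brain hemisphere, the ischemic one in the mice with ischemia. The members were the rows of the deposited count table that carried exactly these symbols, 6 of 39756 genes, and all 6 were present. After a filter on low counts 17558 genes were tested, among them 5 of the 6 members, while Nox4 had too few reads. The male C57BL/6J mice, aged 9 to 10 weeks, formed a Sham, a Vehicle and an LJP group of 4 animals each. Ischemia in the Vehicle and LJP mice came from tMCAO, the transient occlusion of the left middle cerebral artery with a silicon-coated filament, held for 45 min before reperfusion. LJP is a sulfated polysaccharide of the brown alga Laminaria japonica and was given into the stomach once a day for 14 days before surgery and onward after it, whereas Sham and Vehicle mice received saline on that schedule. After its dose comparison the study went on with LJP-M, the middle of 3 doses, and its text does not give the time after surgery of the sequenced mice. Vehicle against Sham addressed the effect of ischemia, and LJP against Vehicle the effect of the polysaccharide.

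The oxidase of phagocytes passes electrons from NADPH across a membrane to oxygen and so forms superoxide. Cybb (gp91phox, or NOX2) is its catalytic subunit and is held in the membrane by Cyba (p22phox). Ncf1 (p47phox) and Ncf4 (p40phox) wait in the cytosol and join the membrane pair when the cell is stimulated, together with the small GTPase Rac2, or Rac1 in other cells. In brain the complex is best known from microglia, and neutrophils and macrophages that enter after a stroke carry it at high levels. Nox4 is a separate catalytic subunit that also pairs with Cyba but needs none of the cytosolic subunits, and it is known chiefly from kidney and vessel wall. It is a relative of the phagocyte enzyme rather than a part of it.

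Promoters of the membrane pair and of Ncf1 are given because the transcripts of these 3 genes rose together from the Sham to the Vehicle group. Each covers 250 bases before and 50 bases after the RefSeq transcript start on GRCm38.p6, reads 5′ to 3′ along the gene, and has in capitals the letters CCAAT and TTCCTC where present. Cybb lies at chrX:9469275-9469574, Cyba at chr8:122432891-122433190 and Ncf1 at chr5:134229576-134229875, all on the minus strand, and the start used for Cybb falls inside the span counted as that gene in the file.
Cybb: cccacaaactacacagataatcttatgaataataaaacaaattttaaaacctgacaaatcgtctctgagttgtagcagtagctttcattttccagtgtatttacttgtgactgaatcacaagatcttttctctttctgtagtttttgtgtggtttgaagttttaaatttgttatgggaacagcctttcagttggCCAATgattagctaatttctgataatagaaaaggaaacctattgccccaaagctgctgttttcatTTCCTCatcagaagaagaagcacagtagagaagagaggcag
Cyba: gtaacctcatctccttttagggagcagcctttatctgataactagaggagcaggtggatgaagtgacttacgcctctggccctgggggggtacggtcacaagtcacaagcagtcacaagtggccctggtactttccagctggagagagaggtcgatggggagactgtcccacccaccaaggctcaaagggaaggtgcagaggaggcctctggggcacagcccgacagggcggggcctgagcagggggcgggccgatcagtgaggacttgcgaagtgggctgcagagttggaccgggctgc
Ncf1: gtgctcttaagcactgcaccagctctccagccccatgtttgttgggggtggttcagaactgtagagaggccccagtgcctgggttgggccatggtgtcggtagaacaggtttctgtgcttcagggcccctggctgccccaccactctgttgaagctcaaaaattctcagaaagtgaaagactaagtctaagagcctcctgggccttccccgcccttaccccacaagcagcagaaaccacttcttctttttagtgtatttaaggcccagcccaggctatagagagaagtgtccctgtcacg
4 of the 6 members had a RefSeq promoter in the table used, the other one being Nox4, and Ncf4 and Rac2 had none. The letters GAGGAAG (bound by PU.1, a myeloid factor), those of the NF-kappa B consensus and ACGTG (the core of a hypoxia response element), read on both strands, were found in 0 of the 4 windows, and in 13.6%, 0.155% and 19.6% of 32851 promoters. The shorter GAGGAA, which is part of GAGGAAG, and CCAAT were looked for after the sequences had been seen. Each occurred in the Cybb window alone among the 4, GAGGAA on the strand opposite to the gene (TTCCTC as printed), against 28.3% and 37.4% of all promoters. The windows also differed in composition, with 35.3% G and C bases in Cybb, 54% in Ncf1, 60.7% in Cyba and 68.3% in Nox4.

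The authors deposited reads counted per gene, and totals per mouse lay between 17960353 and 22216315. Levels are given as CPM, counts divided by the library size after TMM scaling, in the usual unit. Cell type markers moved with the groups. Those of astrocytes summed to 1521 to 1618 CPM in Sham, 2906 to 4349 in Vehicle and 2718 to 3812 in LJP mice. Of these 7 markers, 2 rose from Sham to Vehicle mice (edgeR adjusted p below 0.05). Neuron markers summed to 6629 to 7401 CPM in Sham, 4000 to 6420 in Vehicle and 6175 to 7265 in LJP mice, so the tissue was brain in every library. Vehicle mice 1 and 2 stood apart within their group: markers of monocytes and macrophages summed to 602 and 1421 CPM, against 299 and 369 in Vehicle mice 3 and 4, and markers of neutrophils to 214 and 78.8 CPM, against 18.2 and 30.1. In bulk tissue, fewer cells of a type and less RNA per cell cannot be told apart.

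In levels scaled to gene length, in the Sham group Cyba had the highest level, 5.14 CPM per kilobase, followed by Ncf1 at 2.09, Rac2 at 0.569, Ncf4 at 0.245, Cybb at 0.137 and Nox4 at 0.0254 (means, n = 4 mice). Ncf4 and Cybb, neighbors in this order, had SDs of 0.0824 and 0.0913, and their intervals of 1 SD either way overlapped, as did those of Cybb and Nox4 (SD 0.0209). In the Vehicle group the order was the same, from Cyba at 61.0 through Ncf1 at 13.03, Rac2 at 6.85, Ncf4 at 4.58 and Cybb at 1.58 to Nox4 at 0.137 CPM per kilobase. There the intervals of Rac2 (SD 2.66) and Ncf4 (SD 2.52) overlapped, and those of Ncf4 and Cybb (SD 0.607). The means of the LJP group had the same order, at 29.5, 9.19, 3.25, 1.75, 1.05 and 0.0370, and again Rac2 (SD 1.41) overlapped with Ncf4 (SD 0.881) and Ncf4 with Cybb (SD 0.793). In Sham mouse 4 and LJP mouse 1 Ncf4 lay below Cybb, at 0.620 and 0.982 times its level per kilobase. Cyba, the partner of Nox4 as well as of Cybb, stood in each of the 12 mice at least 21.5 times above Cybb per kilobase.

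**Figure D1:**
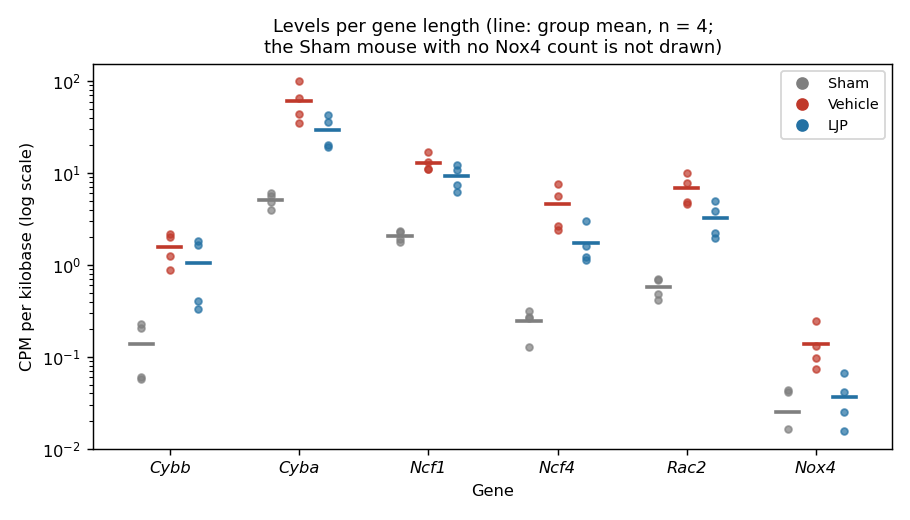
Level per gene length of the 6 genes, as CPM per kilobase on a log axis, with a point per mouse and a line at each group mean (n = 4). Cyba lies highest (5.14, 61.0 and 29.5 in the Sham, Vehicle and LJP groups) and Nox4 lowest in each group; the Sham mouse with no Nox4 count has no point.

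The membrane pair rose after ischemia. Cybb (Entrez Gene 13058, chromosome X from 9435252 to 9487766 of GRCm38) had 5, 20, 5 and 19 counts in Sham mice 1 to 4, which equals 0.288, 1.09, 0.274 and 0.985 CPM. In Vehicle mice 1 to 4 it stood at 9.71, 10.4, 4.25 and 6.09 CPM, from 79 to 241 counts, and in LJP mice 1 to 4 at 7.90, 1.58, 8.76 and 1.95 CPM. Every Vehicle and LJP mouse lay above every Sham mouse, and the LJP mice formed 2 pairs, 1 and 3 among the Vehicle values and 2 and 4 below them. From Sham (0.659 ± 0.439 CPM, SD, n = 4) to Vehicle (7.60 ± 2.92) the level rose 11.4-fold, a log2 fold change of 3.51 (standard error, SE, 0.64; edgeR adjusted p = 0.00171). Cyba (Entrez Gene 13057, chromosome 8 from 122424771 to 122432940) had 3.00, 3.71, 4.60 and 4.30 CPM in the Sham mice. Vehicle values were 49.4, 75.8, 26.6 and 33.5 CPM, and LJP values 27.4, 15.3, 32.2 and 14.7. No Vehicle mouse came near the Sham range, while LJP mice 1 and 3 reached into the lower end of the Vehicle range. Cyba rose from 3.90 ± 0.708 to 46.3 ± 21.8 CPM (SD, n = 4), a log2 fold change of 3.57 (SE 0.37, edgeR adjusted p = 9.61e-05). Vehicle mouse 2 was the highest of its group for both genes, and without it the values were 3.31 for Cybb and 3.22 for Cyba. A long noncoding RNA on the opposite strand, Gm33784, overlaps Cybb and had at most 1 count.

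**Figure D2:**
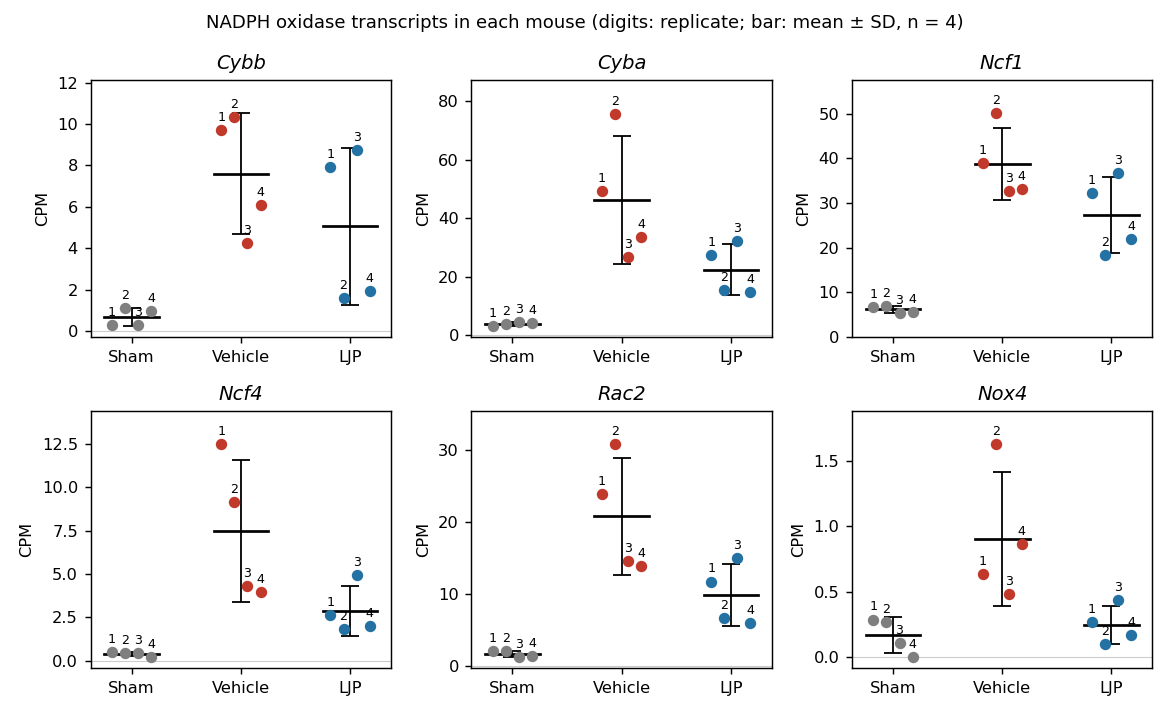
CPM of each gene in each mouse, with the mouse number above the point and bars at the group mean ± SD (n = 4); the axes are linear and differ between panels. All Vehicle points lie above all Sham points in the 6 panels, LJP points of 5 genes reach into the Vehicle range, and those of Nox4 do not.

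Both cytosolic subunits among the members rose as well. Ncf1 (Entrez Gene 17969, chromosome 5 from 134220053 to 134229628), which carries the phosphorylation switch of the complex, had 6.81, 7.03, 5.32 and 5.65 CPM in the Sham mice. Its Vehicle values were 38.9, 50.1, 32.8 and 33.1 CPM, and its LJP values 32.2, 18.3, 36.7 and 22.0. Ncf1 was the most even member, with Vehicle mice within 1.53-fold of each other, and its log2 fold change of 2.64 (SE 0.23, edgeR adjusted p = 4.65e-05) was the smallest of the 5 tested and the one with the smallest p. LOC115490142, a noncoding RNA on the opposite strand, overlaps Ncf1 and had 6 to 30 counts per mouse, against 97 or more for Ncf1. The strand setting of the counting is not given in the sources used here, so reads of such overlapping pairs cannot be told apart. Ncf4 (Entrez Gene 17972, chromosome 15 from 78244164 to 78262582), which binds a membrane lipid of phagosomes, had 9, 8, 8 and 4 counts in the Sham mice. Vehicle mice 1 to 4 had 275, 213, 80 and 73 counts (12.5, 9.15, 4.31 and 3.93 CPM), and LJP mice 58, 36, 91 and 36 (2.63, 1.84, 4.95 and 2.01 CPM). The Vehicle mice thus split into a high pair, 1 and 2, and a low pair, 3 and 4, and LJP mouse 3 lay above that low pair. Its log2 fold change of 4.21 (SE 0.50, edgeR adjusted p = 0.000157) was the largest of the members, 3.85 without Vehicle mouse 1. Ncf4 passed the filter on low counts through Vehicle and LJP mice only, since no Sham mouse reached the filter level of 0.531 CPM, and Cybb did so in 2 Sham mice.

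The ratio of the 2 cytosolic subunits was computed per mouse. Per kilobase, Ncf1 exceeded Ncf4 6.65- to 14.9-fold in Sham mice, 1.71- to 4.61-fold in Vehicle mice and 4.06- to 6.71-fold in LJP mice. The Sham and Vehicle ranges were apart, and the LJP range overlapped with both. The ratio of Cyba to Cybb, by contrast, had ranges that all overlapped, from 21.5 to 106 in Sham, 32.2 to 46.3 in Vehicle and 22.0 to 61.0 in LJP mice. In the Sham mice these ratios rest on 4 to 9 counts of Ncf4 and on 5 to 20 of Cybb. They were not tested.

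Rac2 (Entrez Gene 19354, chromosome 15 from 78559169 to 78572783), the GTPase of blood cells that turns the assembled enzyme on, had 2.13, 2.07, 1.26 and 1.45 CPM in the Sham mice. Its Vehicle values were 24.0, 30.8, 14.6 and 13.8 CPM and its LJP values 11.8, 6.70, 15.0 and 6.02 CPM. As with Ncf4, Vehicle mice 1 and 2 were the high pair and LJP mouse 3 passed the low pair. The log2 fold change from Sham to Vehicle was 3.59 (SE 0.37, edgeR adjusted p = 9.61e-05). Its widely expressed relative Rac1 stood at 296 ± 5.90 CPM in Sham and 337 ± 36.2 in Vehicle mice (SD, n = 4; log2 fold change 0.19, edgeR adjusted p = 0.0718). Rac1 therefore outweighed Rac2 per kilobase 178- to 304-fold in Sham mice and 16.2- to 29.2-fold in Vehicle mice, and 28.5- to 67.3-fold in LJP mice. How the authors' counting treated reads shared between such relatives is not given in the sources used here.

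Nox4 (Entrez Gene 50490, chromosome 7 from 87244430 to 87398710) was the rarest member and its statements rest on few reads. Sham mice 1 to 4 had 5, 5, 2 and 0 counts, Vehicle mice 14, 38, 9 and 16, and LJP mice 6, 2, 8 and 3. The Sham mouse with 0 counts allows a level of up to 0.155 CPM at the limit of 3 counts, which covers counting error only. All 4 Vehicle mice lay above all Sham and all LJP mice, while Sham and LJP mice were mixed. Pooled over mice, 77 Vehicle against 12 Sham counts gave a ratio of 5.70 after scaling (95% exact interval 3.08 to 11.5, for counting error only and not the spread between mice). Vehicle mouse 2 held 38 of the 77. The mean log2 CPM differed by 1.96 (exact permutation test, two-sided p = 0.0286, the smallest that 4 against 4 allow). Without the filter on low counts edgeR gave a log2 fold change of 2.42 (adjusted p = 0.0139), and 13.1% of all genes with a count passed as higher in that fit.

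Against Sham mice, Cyba, Ncf1 and Rac2, which reached the filter level in each of the 12 mice, thus rose in the Vehicle group at an edgeR adjusted p below 0.05, as 22.7% of all genes tested did. Cybb reached that level in 2 Sham mice and Ncf4 in 0, against all 8 ischemic mice, so these were tested through the groups where they are high and their calls are not read against that share. All 6 members had groups that did not overlap (exact permutation p = 0.0286 for each). This held in the same direction for 12.9% of the 30210 genes with a count. Among the genes tested, which leave out Nox4, it held for 20.7%, a share read for Cyba, Ncf1 and Rac2 only. The calls of Cyba, Ncf1 and Rac2 were kept in each fit that left out 1 mouse, with values from 2.49 for Ncf1 to 3.75 for Cyba. Those of Cybb and Ncf4 were kept too, but they were tested through the groups where they are high and add no support. Markers of myeloid cells moved in the same mice: 8 of 8 rose, and their sum went from 166 to 181 CPM in Sham mice to 528, 773, 540 and 597 CPM in Vehicle mice 1 to 4. The monocyte and macrophage list summed to 102 to 108 CPM in Sham mice, and 7 of its 7 tested genes rose. For neutrophils the sum was 5.31 to 6.74 CPM in Sham mice, with Ly6g, Retnlg and Cxcr2 at 0 there. By edgeR 1 of 9 markers, Csf3r, was tested and rose, while DESeq2, run without that filter, called 6 higher. Of the microglia list 5 of 8 rose, from sums of 223 to 229 CPM to 282, 541, 624 and 653. Vessel markers rose as well: 6 of 8 endothelial markers, from sums of 231 to 257 CPM in Sham mice to 324 to 1525 CPM in Vehicle mice, and 4 of 8 pericyte and smooth muscle markers, from 184 to 199.8 CPM to 209 to 452 CPM. Expressed as a share of the myeloid sum, Ncf1 lay at 3.14% to 4.09% in Sham and 5.54% to 7.37% in Vehicle mice. Cyba lay at 1.80% to 2.74% in Sham and 4.93% to 9.80% in Vehicle mice, and Rac2 at 0.751% to 1.28% and 2.32% to 4.54%. Ncf4 lay at 0.115% to 0.312% in Sham and 0.659% to 2.36% in Vehicle mice, and Cybb at 0.163% to 0.601% and 0.788% to 1.84%. For each of the 5 the Vehicle range lay above the Sham range also on this scale. For Nox4 the ranges overlapped, at 0% to 0.173% in Sham and 0.0897% to 0.211% in Vehicle mice. The part of cell numbers in these differences was not tested.

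**Figure D3:**
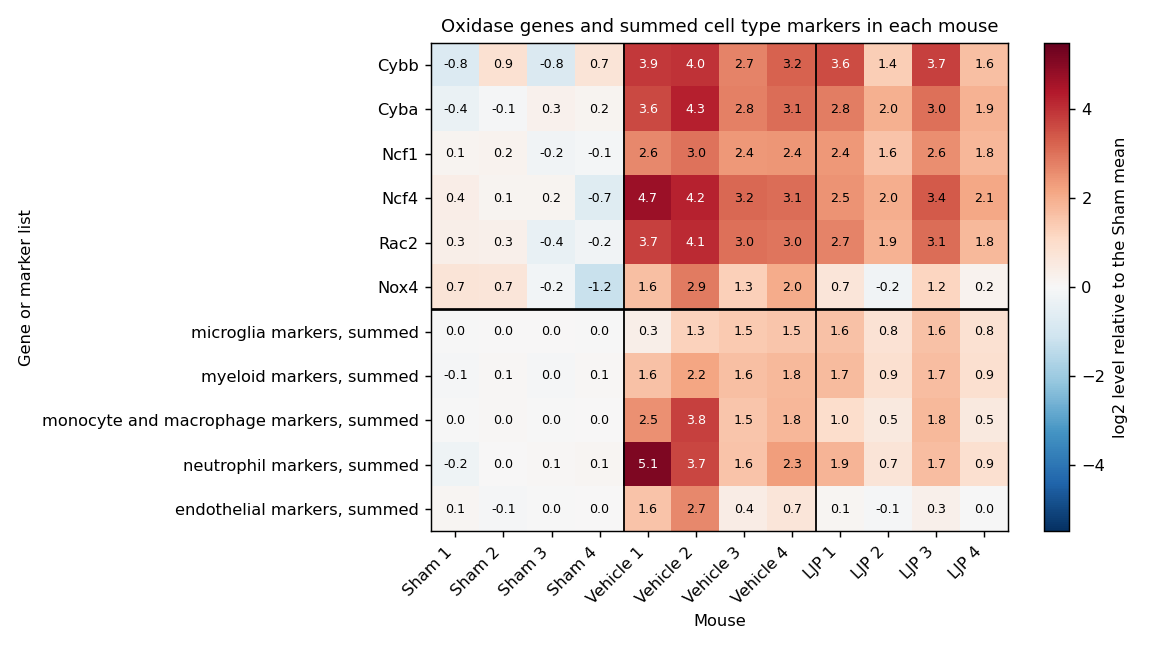
Log2 level of each oxidase gene and of the summed CPM of 5 marker lists in each mouse, relative to the mean of the Sham mice; red is above and blue below it, and the number is in the cell. Vehicle mice 1 and 2 are highest for Ncf4 and for the neutrophil and monocyte lists, and LJP mice 1 and 3 are redder than LJP mice 2 and 4 in all 6 gene rows.

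In the LJP group all 6 members had a lower mean than in the Vehicle group, and none of the 5 tested passed an edgeR adjusted p below 0.05 (0 of 5), a threshold that 0.0228% of all genes tested passed in this direction. Ncf4 had the largest difference, from 7.47 ± 4.10 CPM in Vehicle to 2.86 ± 1.44 in LJP mice (SD, n = 4), a log2 fold change of -1.39 (SE 0.41, edgeR adjusted p = 0.0720). Rac2 went from 20.8 ± 8.07 to 9.87 ± 4.28 CPM (-1.08, SE 0.32, adjusted p = 0.0729 by edgeR). Cyba went from 46.3 ± 21.8 to 22.4 ± 8.79 CPM (-1.05, SE 0.32, adjusted p = 0.0766 by edgeR). The 3 LJP means lay more than 1 SD of the Vehicle mice below the Vehicle means, as did that of Ncf1. Exact permutation of the mice gave p = 0.0857 for each of Ncf4, Rac2 and Cyba. For Ncf1, at 38.7 ± 8.10 and 27.3 ± 8.58 CPM, the value was -0.50 (edgeR adjusted p = 0.136, exact permutation p = 0.114). For Cybb, the catalytic subunit, at 7.60 ± 2.92 and 5.05 ± 3.81 CPM, it was -0.59 with an SE of 0.54 (edgeR adjusted p = 0.469, exact permutation p = 0.286). Of the LJP mice, 3 lay below every Vehicle mouse for Ncf1, Ncf4 and Rac2, and 2 did for Cyba and Cybb.

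At an unadjusted edgeR p below 0.05, 4 of the 5 members were lower in LJP mice, as were 17.4% of all genes. The calls depended on the test. DESeq2 called Cyba (adjusted p = 0.0196), Ncf4 (0.0179) and Rac2 (0.0180) lower, at a background of 9.36% of genes, and not Ncf1 (0.104) or Cybb (0.464). The thresholds of the study's methods, a log2 change of more than 0.58 either way at an unadjusted p below 0.01, which the study applied to DESeq2 and which were applied here to the edgeR values, also took these 3 (background 5.89%). They also depended on single mice. Without Vehicle mouse 3 edgeR called Cyba (adjusted p = 0.0202), Ncf4 (0.0235) and Rac2 (0.0275), beside 13.1% of all genes lower in that fit. Without Vehicle mouse 4 it called Cyba (adjusted p = 0.0460), Ncf4 (0.0343) and Rac2 (0.0378), beside 8.38% of all genes lower. Nox4 was called without Vehicle mouse 3 too, but it passed the filter there through its Vehicle mice alone (level reached in 0 Sham, 3 Vehicle and 0 LJP mice), so this call is no support. The other 9 fits that tested it did not call it (edgeR adjusted p = 0.0831 to 0.204). Without Vehicle mouse 2, in contrast, Cyba had a value of -0.71 (edgeR adjusted p = 0.172) and Cybb of -0.40 (0.700), and without LJP mouse 2 Cybb was at -0.29 (0.752). The direction was negative in each of these fits.

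**Figure D4:**
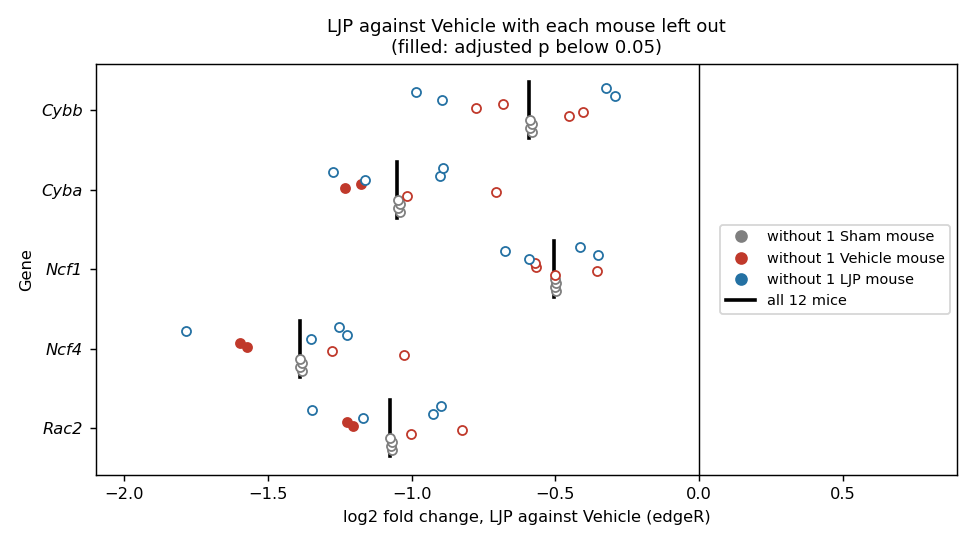
Log2 fold change of LJP against Vehicle for the 5 tested members with all 12 mice (black bar) and with each mouse left out (points, colored by its group; filled where the edgeR adjusted p was below 0.05). Filled points appear only for Cyba, Ncf4 and Rac2, and only where Vehicle mouse 3 or 4 was left out; all points lie below 0.

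Nox4 was the member whose LJP mice lay wholly below the Vehicle mice, as did 5.91% of the genes tested, which leave out Nox4, and 3.85% of the 30210 genes with a count. The separation was narrow, since LJP mouse 3 had 8 counts (0.435 CPM) and Vehicle mouse 3 had 9 (0.484 CPM). So few reads cannot set these 2 mice apart. The 77 Vehicle and 19 LJP counts of Nox4 gave a level 3.83-fold lower in the LJP group (95% exact interval 2.29 to 6.70, again for counting error only). The mean log2 CPM differed by -1.51 (exact permutation p = 0.0286, two-sided). In the model without the filter the difference did not pass (log2 fold change -1.86, edgeR adjusted p = 0.110; 1.8% of genes passed as lower), and DESeq2 gave no adjusted p.

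The members ranked the LJP mice alike. LJP mouse 3 was the highest and LJP mouse 1 the next for all 6 genes, and LJP mice 2 and 4 were the lowest. LJP mice 1 and 3 were the higher pair in the markers too: the myeloid sum was 576, 316, 571 and 322 CPM in LJP mice 1 to 4, the microglia sum 694, 389, 690 and 405, and the monocyte and macrophage sum 206, 151, 355 and 151. Among Vehicle mice, mouse 2 was the highest for Cybb, Cyba, Ncf1, Rac2 and Nox4 and mouse 1 for Ncf4. As a share of the myeloid sum, Ncf1 lay at 5.6% to 6.84% in LJP mice and Cybb at 0.501% to 1.53%, ranges that overlap with those of the Vehicle mice. Cyba at 4.55% to 5.63%, Rac2 at 1.87% to 2.63% and Ncf4 at 0.458% to 0.866% overlapped with the Vehicle ranges as well, and Nox4 did not (0.0897% to 0.211% in Vehicle, 0.0323% to 0.0761% in LJP mice). The nearest Nox4 shares were those of Vehicle mouse 3 and LJP mouse 3, which rest on 9 and 8 counts. None of the 8 myeloid markers, 7 monocyte and macrophage markers or 8 microglia markers tested was called between the LJP and Vehicle groups by edgeR, and 2, 5 and 0 of them had an unadjusted p below 0.05; DESeq2 called 2, 4 and 0 lower. Over all genes the shares were 17.4% lower at that unadjusted p and 9.36% lower by DESeq2. Of the 9 neutrophil markers 1 was tested by edgeR and not called, while DESeq2 called 6 lower. The neutrophil sum was 10.1 to 22.3 CPM in LJP mice, with Ly6g, Camp and Cxcr2 at 3 counts or fewer in each. Endothelial markers summed to 724, 1525, 324 and 387 CPM in Vehicle mice 1 to 4 and to 232 to 294 CPM after LJP. Of these 8 markers edgeR called 0 and DESeq2 7 lower, with 7 at an unadjusted p below 0.05, and of the 8 pericyte and smooth muscle markers edgeR called 0 and DESeq2 4 lower. The part of these cells in the lower oxidase levels was not tested.

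The Sham mice are the control of both ischemic groups, so the values against them share those 4 animals. In LJP against Sham, Cyba, Ncf1 and Rac2 were higher (edgeR adjusted p below 0.05), at a background of 3.85% of genes, and so were Cybb and Ncf4, tested through the ischemic groups. Ncf1 had a log2 fold change of 2.14 (adjusted p = 0.000414), Cyba of 2.52 (0.00196), Rac2 of 2.51 (0.00215), Ncf4 of 2.82 (0.00667) and Cybb of 2.92 (0.0212), all by edgeR. Groups did not overlap for Cyba, Ncf1 and Rac2, as for 12.9% of the genes tested in this direction. They did not overlap for Cybb and Ncf4 either, which are not read against that share. The call of Cybb was the least firm and was lost without Sham mouse 1 (edgeR adjusted p = 0.0813), 3 (0.0788) or 4 (0.0516) and without LJP mouse 1 (0.0641) or 3 (0.0743). Nox4 showed no detectable difference from Sham at this depth (count ratio 1.49, 95% exact interval 0.686 to 3.36 for counting error only; exact permutation p = 0.514).

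**Figure D5:**
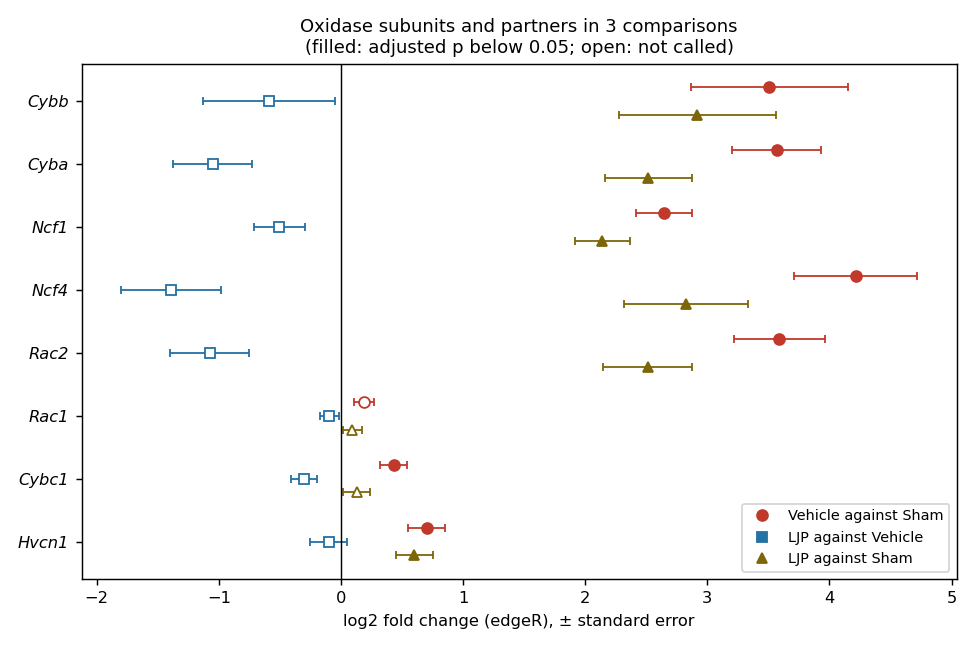
Log2 fold changes from edgeR (points, ± standard error) of the 5 tested members and of Rac1, Cybc1 and Hvcn1 in the 3 comparisons; filled marks have an adjusted p below 0.05. The members lie between 2.14 and 4.21 against Sham mice in both ischemic groups, while Rac1 stays within 0.19 of 0 and no mark of LJP against Vehicle is filled.

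Cybc1, a chaperone that Cybb and Cyba need, rose by 0.43 on the log2 scale in Vehicle mice (edgeR adjusted p = 0.00876), and Hvcn1, a proton channel that offsets the charge moved by the oxidase, by 0.70 (0.00391). Both log2 fold changes were below those of the 5 members, the lowest of which was 2.64. In LJP against Vehicle they were at -0.30 (edgeR adjusted p = 0.103) and -0.10 (0.661).

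A list of 35 partners and regulators of the oxidase, 33 of them tested, had 23 genes called higher and 4 lower in Vehicle against Sham mice, with a median log2 fold change of 1.16 beside 0.00 over all genes (39.9% of all genes were called in either direction). The 3 with the smallest p were C5ar1, the receptor for the complement fragment C5a that triggers the burst (log2 fold change 5.16, edgeR adjusted p = 5.24e-05), Dock2, an exchange factor that loads Rac with GTP (2.79, 8.96e-05), and Vav1, another such factor (2.70, 9.61e-05). The 4 that fell were the kinases Prkca, Prkcb, Prkcz and Pak1, with Prkcb, known both as a kinase of Ncf1 and as an abundant neuronal isoform, at -1.01 (edgeR adjusted p = 0.000636). In LJP against Vehicle, 0 of the 33 were called by edgeR, 13 were lower and 4 higher at an unadjusted p below 0.05, and DESeq2 called 10 lower and 1 higher. Over all genes 17.4% were lower at that unadjusted p and 9.36% were lower by DESeq2. The median was -0.35 and 28 of the 33 had a negative value. By p, the first 3 were C5ar1 at -1.49, then Arhgdia at -0.46 and Arhgdib at -1.14, both inhibitors that hold Rac in the cytosol. Each had an edgeR adjusted p of 0.0678. Against Sham mice the LJP group had 15 of the 33 higher (3.85% of all genes) and 0 lower. The list shares Fcer1g and Tyrobp with the myeloid markers.

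Of 8 genes of the other oxidases in the family, Nox1 and Noxo1 were tested, and neither was called in any of the 3 comparisons by edgeR (unadjusted p below 0.05 in 0) or DESeq2. Nox1 stood at 1.55 ± 0.172 CPM in Sham, 1.33 ± 0.481 in Vehicle and 1.87 ± 0.102 in LJP mice (SD, n = 4). Noxo1, the organizer of Nox1, had a log2 fold change of 0.31 in Vehicle against Sham mice (edgeR adjusted p = 0.329). Nox3 and Duox2 had 0 to 4 counts in any mouse and Duox1 2 to 11, so no difference was detectable at this depth.

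Enzymes that remove superoxide and peroxide rose with the oxidase in Vehicle mice, 13 of 19 tested (22.7% of all genes), while 1 fell, the mitochondrial Sod2 (log2 fold change -0.25, edgeR adjusted p = 0.0230). Prdx6, a peroxiredoxin, rose by 1.14 on the log2 scale (edgeR adjusted p = 0.000107), Gpx3, a secreted glutathione peroxidase, by 2.42 (0.000521) and Gpx1, the cytosolic one, by 1.05 (0.00100). The median of the 19 was 0.85. In LJP against Vehicle mice edgeR called 0 of the 19, with 12 lower at an unadjusted p below 0.05, and DESeq2 called 7 lower and 0 higher. Over all genes 17.4% were lower at that unadjusted p and 9.36% by DESeq2. The first 3 by p were Gpx3 at -1.71, Txnrd1, which recycles thioredoxin, at -0.83, and Prdx5 at -0.33 (edgeR adjusted p = 0.0678, 0.0678 and 0.0683). Against Sham mice 1 of the 19 was called higher in LJP mice, beside 3.85% of all genes. This was Prdx6, at 0.84 on the log2 scale (edgeR adjusted p = 0.00208).

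The genes whose profiles over the 12 mice came closest to each member were searched among all genes tested, by the root mean square difference of log2 CPM centred on each gene's mean. Cyba was closest to Itgb2, the beta chain of leukocyte integrins, at 0.191, to Tagln2 at 0.201 and to Apobr at 0.205. Rac2 shared Itgb2 as a neighbor (0.265), with Myo1g, a myosin of blood cells, at 0.222 and Lcp1, an actin bundler of leukocytes, at 0.271. Ncf1 lay nearest to Naip2, a sensor of bacterial proteins, at 0.179, to the leukocyte tetraspanin Cd53 at 0.188 and to the adaptor Fyb at 0.198. Ncf4 was nearest to S100a4 at 0.251, to Tlr13, a receptor for bacterial RNA, at 0.279 and to Runx1, a factor of blood cell development, at 0.311. Cybb had no neighbor as close, with the acid-sensing receptor Gpr65 at 0.390, the macrophage protease Mmp12 at 0.434 and Rab32 at 0.452. Nox4 was the loosest, with Slc25a24 at 0.445, Cdkn2a at 0.453 and Gm1966 at 0.455. These differences are descriptions over 12 mice that share 3 groups, a tissue and a depth, and for Cybb and Nox4 they include the counting noise of few reads.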

How the data were processed

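Poly(A) RNA of brain hemispheres of 12 mice, ischemic in the Vehicle and LJP groups, was sequenced as paired ends. The authors deposited raw read counts per gene and mouse, made per the labels with featureCounts; strand setting and aligner are not given in the sources used here, and the submitters' processing notes name GRCm39 and mm10, while the gene positions in the file match GRCm38. No row without a gene was present. Mice were grouped by their labels.

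Counts of all 12 mice were fitted in 1 model with edgeR 4.0.16 in R 4.3.3 (filterByExpr, TMM scaling, quasi-likelihood test). Benjamini-Hochberg adjustment ran over 17558 genes and genes were called below 0.05. Log2 CPM used a prior count of 2. Exact permutation tests of single genes (4 mice against 4, two-sided) used scipy 1.17.1. Nox4, removed by the filter, was compared by that test and by pooled counts with exact 95% intervals. Plots were drawn with matplotlib 3.10.9. Mice of 1 group differed beyond sampling noise in all 18 pairs (smallest chi-square per degree of freedom 2.48). The largest value was 6.19 among Sham, 15.2 among LJP and 111 among Vehicle pairs. P-values measure the spread between these mice, and those of edgeR use 1 estimate per gene shared by all groups.

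Besides the 6 members, the text names Rac1, Cybc1, Hvcn1, Nox1, Nox3, Duox1 and Duox2, the 3 genes with the smallest p in each pathway list in Vehicle against Sham and in LJP against Vehicle, and the 3 closest profiles of each member; 1 further gene of this rule is not reported here. Genes that fell in a list, the listed marker genes at or near 0 and Csf3r were named after their values were seen. Members and lists were chosen with earlier results of these data known. Alternatives were DESeq2 1.42.0, RLE or library size scaling, no filter, a replicate block, a fit of 2 groups, the thresholds of the study's methods on edgeR values and each mouse left out in turn.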

Additional observations from a re-analysis of the deposited data

Results flagged for a closer look

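For 22 genes in 3 groups of 4 mice, 66 groups in all, the gap of the highest or lowest mouse to its nearest neighbor was divided by the range of the group. The ratio was above the Dixon limit in 1 of the 66, and chance gives about 1 in 20: Cybc1, the chaperone of Cybb and Cyba, was highest in Vehicle mouse 2 at 22.3 CPM, with a ratio of 0.87. No member of the oxidase had such a mouse in any group.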

How the results depend on the processing

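RLE or library size scaling and no filter on low counts changed no call of the 5 tested members. In LJP against Vehicle the number of members called lower, 0 in the model of all 12 mice, was 3 with DESeq2, 3 at the thresholds of the study's methods, and 0 to 4 with each mouse left out in turn; the 4 includes Nox4, which passed the filter through Vehicle mice alone, and the other members reached at most 3. With only the 2 groups compared, Cyba, Ncf4 and Rac2 were not called (edgeR adjusted p = 0.208 for each). The replicate block did not call them either (edgeR adjusted p = 0.144, 0.140 and 0.140). The cause of this dependence was not tested. Over all settings the log2 fold change in this comparison lay between -1.79 and -1.03 for Ncf4, -1.35 and -0.82 for Rac2, -1.27 and -0.71 for Cyba, -0.68 and -0.35 for Ncf1 and -0.98 and -0.29 for Cybb. With single mice left out, Hvcn1 lay between -0.20 and 0.013 in LJP against Vehicle, above 0 without LJP mouse 4, and Noxo1 between -0.051 and 0.16 in LJP against Sham, below 0 without Sham mouse 2 or 3 or LJP mouse 1 or 3. Over all genes, 7014 were called in Vehicle against Sham (3807 at the thresholds of the methods). In LJP against Vehicle 4 were called, against 593 with no filter, 2307 with DESeq2, 1223 at the thresholds of the methods, 2 with only the 2 groups compared, 3857 when Vehicle mouse 3 was left out and 2095 when Vehicle mouse 4 was. In LJP against Sham 834 were called, against 4043 with only the 2 groups compared, 1454 with DESeq2 and 393 to 2357 with single mice left out. Few counts limit Nox4 and the Sham level of Cybb and Ncf4.

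Equal replicate numbers did not pair the mice: deviations from the group means correlated between -0.32 and 0.11 over same-numbered mice. With the replicate block 5 members were called higher in Vehicle against Sham, 0 lower in LJP against Vehicle and 4 higher in LJP against Sham, where Cybb was not called (log2 fold change 2.80, edgeR adjusted p = 0.0911). Over all genes the block gave 2 calls in LJP against Vehicle and 464 in LJP against Sham.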
